A study of Mus musculus with 9 samples.

Results

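The comparison set the 3 libraries coded C-26 against the 3 libraries coded NTC, which are 6 of the 9 RNA-seq libraries of 4T1 cells in the series. Members were chosen by the code in each library's description, and the libraries were paired by its leading number, which follows the title (1 for control, 2 for clone 2 and 4 for clone 3). Each code thus holds 1 library titled control, 1 titled clone 2 and 1 titled clone 3, and values below stand in that order of titles. The 4T1 line is a mouse mammary carcinoma line. Per the labels' protocols, cells were transfected with control or miR-204-5p plasmids and stable clones were selected with Zeocin, and polyadenylated RNA was sequenced. A genotype label puts average overexpression of miR-204-5p at 150-fold (clone 2) and 525-fold (clone 3). The libraries titled clone 2 and clone 3 carry this label under all 3 codes, C-26, C-20 and NTC alike. Titles and codes thus cross, it is not known which of them gives the biological groups, and the level of miR-204-5p was not checked here. The labels do not say what C-26, C-20 or NTC stand for, and the authors' deposited comparisons follow these codes. Each pairing of a title with a code has 1 library, and each clone title is a single clone. Nothing states that the libraries came from separate cultures, so p-values measure the spread between these libraries only, which may be technical.

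Several of the gene groups described below are well known from tumour cells. ATF4 is the transcription factor through which shortage of amino acids or stress of the endoplasmic reticulum raises genes of amino acid uptake, amino acid synthesis and tRNA charging. Small nucleolar RNA host genes carry, in their introns, the guide RNAs that direct chemical marks onto ribosomal RNA, and ribosome biogenesis factors assemble the ribosome in the nucleolus. Interferon-stimulated genes are the antiviral and antigen-presenting genes that STAT and IRF factors switch on.

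The epithelial keratin genes Krt8 and Krt18 and the epithelial genes Epcam and Cdh1 were expressed in all 6 libraries, between 13.8 FPKM (Epcam, NTC titled control) and 743 FPKM (Krt8, C-26 titled clone 3). FPKM counts the fragments of a gene scaled to transcript length and library size. The leukocyte genes Cd3e and Nkg7 and the endothelial gene Sox17 were listed at 0 in all 6 libraries. Ptprc, Kdr, Cdh5, Lum and Dcn reached at most 0.128, 0.0104, 0.0527, 0.0192 and 0.0899 FPKM. Other markers of these cell types were expressed: Flt1, Egfl7, Pdgfra, Fbln2, Cd68 and Cd14 stood between 1.12 FPKM (Flt1, NTC titled control) and 130 FPKM (Fbln2, NTC titled clone 3). Among the epithelial and carcinoma markers, Krt5 and Pgr reached at most 0.00904 and 0.0109 FPKM, and Krt14 ran from 0.268 to 4.94 FPKM. The C-26 library titled clone 2 stood apart from the other 5. It had 18283 genes above 0, against 14883 and 16435 in the other C-26 libraries and 15002 to 15621 in the NTC libraries. Of 1425 olfactory and vomeronasal receptor genes, 16.2% were above 0 in that library, against 0.84% and 5.75% in the other C-26 libraries and 1.61% to 3.3% in the NTC libraries. The C-20 libraries, which share the fit below, had 17567, 16923 and 15261 genes above 0 and 9.12%, 6.39% and 0.84% of these receptors. The C-20 library titled control thus came nearest to it. The part of the C-26 library titled clone 2 in the results was not tested beyond leaving it out. The counts of the lists that turn on it are given with and without it. In every list described below, at most 2 members stayed called when it was left out.

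Fitted in limma with the title as a block, 10783 genes gave 728 that were higher and 794 that were lower in C-26 than in NTC at a Benjamini-Hochberg adjusted p below 0.05, and these genes are referred to as called. They make up 6.75% and 7.36% of the tested genes, the background against which counts of list members are read. The median change was 0.85 among genes called higher and −0.76 among genes called lower, on the scale of log2(FPKM + 1) that all log2 changes here use and that understates the change of low genes. A change of 1 or more in size was reached by 225 genes called higher and 145 called lower, and a change of 2 or more by 10 and 14. The median over all tested genes was −0.01, and the median standard error 0.18. The 3 C-26 libraries lay above the 3 NTC libraries for 1162 genes (10.8%) and below them for 1332 (12.4%), and 1121 of the 1522 called genes were of these kinds.

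The 3 pairs share no library, so each gave its own set of changes. The median over all tested genes was 0.12 in the pair titled control, −0.001 in that of clone 2 and −0.10 in that of clone 3. List medians by pair, given below, are read against these values. The pair titled control had the widest changes, with an SD over genes of 0.702 and 1110 genes at least 1 log2 unit higher in C-26 against 469 as much lower. The pair titled clone 2 had an SD of 0.559 with 456 such genes higher and 273 lower. In the pair titled clone 3 the SD was 0.428, and there the balance lay the other way, with 71 higher and 282 lower. Across genes, which are not independent replicates, changes in the control and clone 2 pairs correlated at Pearson's r of 0.621 (Spearman's rho 0.628), those in the clone 2 and clone 3 pairs at 0.609 (0.603) and those in the control and clone 3 pairs at 0.441 (0.405). All 3 pairs were positive for 2677 genes and all 3 negative for 2992, while 5114 had mixed signs or a 0. Of the 1522 called genes, 1517 had the same sign in all 3 pairs. This was largely fixed in advance, since the fit called them from these same pairs.

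**Figure D1:**
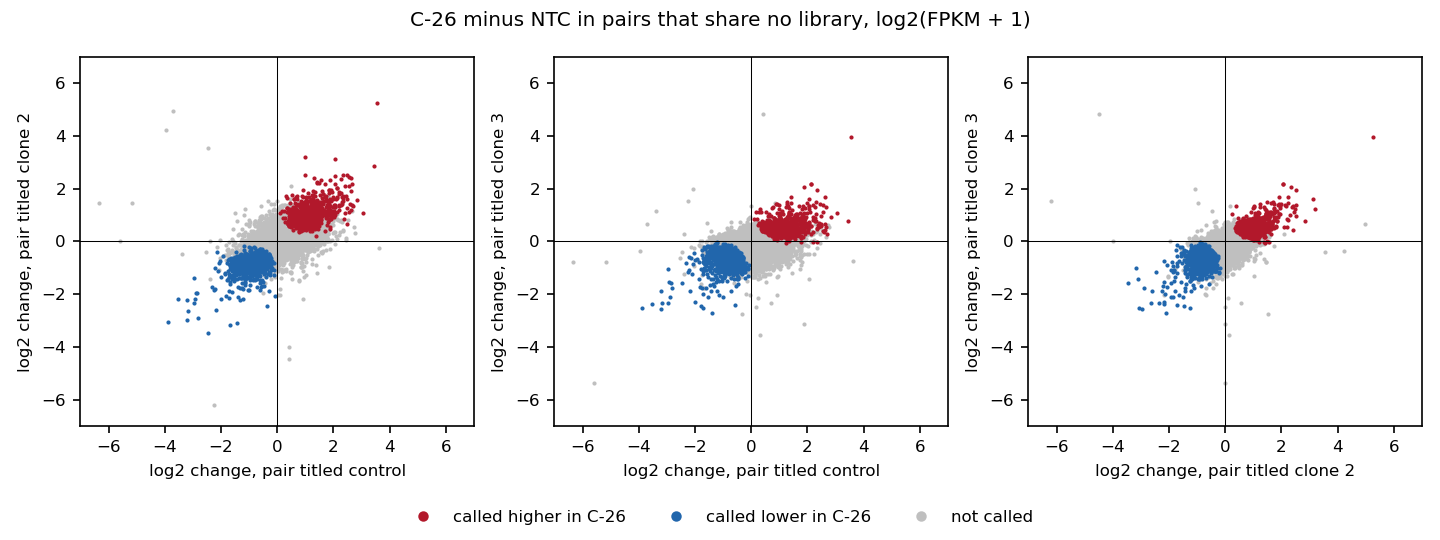
Change of each tested gene in 1 pair of libraries (C-26 minus NTC, log2 of FPKM + 1) against its change in another pair, for the 3 combinations of pairs. Red points are the 728 genes called higher, blue points the 794 called lower and grey points genes not called. Points of 1517 of the 1522 called genes lie in the quadrants of equal sign, which their calling from these same pairs largely fixed. The spread along the axis of the control pair (SD 0.702) is wider than along that of the clone 3 pair (SD 0.428).

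Genes called higher were led by Mgp, the gene of matrix Gla protein, which keeps soft tissue from calcifying. It stood at 30.1, 141 and 55.3 FPKM in C-26 libraries, against 1.67, 2.72 and 2.63 FPKM in NTC libraries. The groups were far apart, and the C-26 library titled clone 2 was the highest of all. The log2 change was 4.25 ± 0.29 (SE; limma with Benjamini-Hochberg adjusted p = 0.00012), the largest among called genes with a mean of 5 FPKM or more in the higher group. Crip1, which encodes a small LIM-domain protein, was the next. It had 568, 422 and 425 FPKM in C-26 libraries and 50.8, 57.7 and 250 FPKM in NTC libraries, and in NTC the clone 3 library was the highest. Its log2 change was 2.36 ± 0.46 (limma adjusted p = 0.0155).

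Mcpt8, the gene of a serine protease known from basophils and related to mast cell proteases, was at 5.15, 9.996 and 9.911 FPKM in C-26 libraries and 0.215, 0.93 and 1.83 FPKM in NTC libraries. Eya2, a phosphatase and transcriptional coactivator, was at 8.71, 12.2 and 9.53 FPKM in C-26 libraries and 0.583, 2.46 and 2.25 FPKM in NTC libraries. The calcium-binding protein gene S100a16 was at 8.59, 13.3 and 10.3 FPKM in C-26 libraries and 1.63, 1.81 and 1.68 FPKM in NTC libraries. For these 3 genes the lowest C-26 library was above the highest NTC library, and log2 changes were 2.27 ± 0.20, 2.08 ± 0.21 and 2.09 ± 0.19 (limma adjusted p = 0.00115, 0.00159 and 0.00125). Add2 encodes a subunit of adducin, which ties spectrin to actin filaments, and had 3.51, 11 and 3.601 FPKM in C-26 libraries and 0.0864, 0.39 and 0.503 FPKM in NTC libraries. The other genes of the 12 highest changes were Xlr, Lypd3, Btc, Nptx1, Tmie and Pthlh, at log2 changes of 2.04, 2.02, 2.00, 1.98, 1.91 and 1.87. Pthlh encodes parathyroid hormone-related protein, a hormone of bone resorption that breast tumours can secrete. It had 8.15, 14.8 and 12.2 FPKM in C-26 libraries and 0.667, 3.76 and 3.91 FPKM in NTC libraries, with no overlap. Xlr was the exception among the 12: at 37.8, 25.3 and 3.92 FPKM in C-26 libraries and 5.64, 3.83 and 1.24 FPKM in NTC libraries the groups overlapped, since both codes were lowest under the title clone 3.

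**Figure D2:**
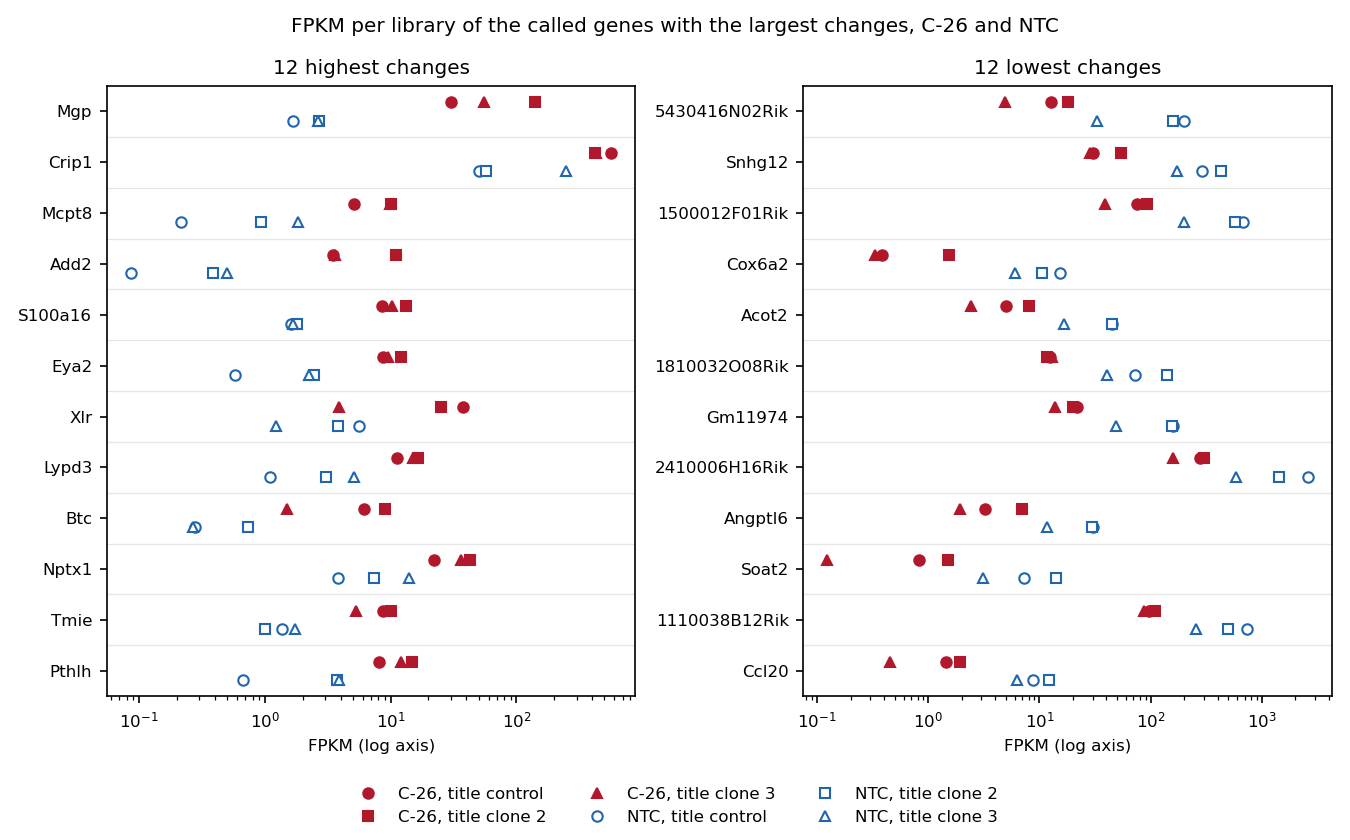
FPKM in each C-26 library (filled red) and each NTC library (open blue) of the 12 called genes with the highest and the 12 with the lowest log2 change among those with a mean of 5 FPKM or more in the higher group, on a log axis. Circles, squares and triangles are the libraries titled control, clone 2 and clone 3. For 23 of the 24 genes the codes do not overlap, and Xlr is the exception.

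By amount, the largest increases in mean FPKM were in S100a11, a calcium-binding protein gene, and Actg1, the gene of cytoplasmic gamma-actin. S100a11 had 1891, 1882 and 3105 FPKM in C-26 libraries against 546.5, 703.8 and 1569 FPKM in NTC libraries. Actg1 had 1131, 1270 and 2164 FPKM in C-26 libraries against 267.9, 418.5 and 990.9 FPKM in NTC libraries. In both genes the clone 3 library was the highest of its code, and each C-26 library was above its NTC partner (log2 1.40 ± 0.29 and 1.6 ± 0.30, limma adjusted p = 0.0178 and 0.0148). Crip1, Rpl37a, Krt8, Ifitm3, Spp1, Tubb5, Igfbp4 and Calr made up the rest of the 10 largest increases, with log2 changes from 0.79 for the ribosomal protein gene Rpl37a to 2.36 for Crip1. The largest decreases were in the noncoding RNA genes 2410006H16Rik, 1500012F01Rik, 1110038B12Rik and Snhg1, the ribosomal protein genes Rps23 and Rps27a, Npm1, which encodes a nucleolar chaperone, the translation initiation factor gene Eif1, the autophagy receptor gene Sqstm1, and Myc. Myc, which drives growth and ribosome synthesis, was at 90.5, 153 and 139 FPKM in C-26 libraries against 432, 554 and 310 FPKM in NTC libraries, without overlap.

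Among the 12 lowest log2 changes, 7 were noncoding RNA genes. The lowest of all was 5430416N02Rik, annotated by RefSeq as a long noncoding RNA gene, at 12.7, 18.1 and 4.87 FPKM in C-26 libraries and 200, 160 and 33.0 FPKM in NTC libraries (log2 −3.16 ± 0.48, limma adjusted p = 0.0077). The protein-coding genes among the 12 were Cox6a2, Acot2, Angptl6, Soat2 and Ccl20. Cox6a2, the heart and muscle form of a cytochrome c oxidase subunit, was at 0.38, 1.52 and 0.33 FPKM in C-26 libraries and 15.1, 10.5 and 5.96 FPKM in NTC libraries. Acot2, a mitochondrial acyl-CoA thioesterase gene, had 4.96, 8.05 and 2.44 FPKM in C-26 libraries against 44.9, 45.2 and 16.6 FPKM in NTC libraries, and Soat2, which esterifies cholesterol, 0.826, 1.503 and 0.124 FPKM against 7.25, 14.1 and 3.14 FPKM. The groups did not overlap for any of these 3 genes, and within each code the clone 3 library was the lowest. Ccl20, the chemokine that acts through CCR6, was at 1.44, 1.93 and 0.449 FPKM in C-26 libraries and 8.71, 12.2 and 6.22 FPKM in NTC libraries (log2 −2.16 ± 0.21, limma adjusted p = 0.00159).

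The smallest p-values of all belonged to Mir8099-1 and Mir8099-2, 2 annotated copies of the same microRNA precursor. They passed the filter on low values (1 FPKM or more in at least 3 libraries) through the C-26 libraries alone and so had to differ, and their p-values are given as a description. Of the 1522 called genes, 9 passed through C-26 libraries alone and 6 through NTC libraries alone, with no library of another code at 1 FPKM or more. Others reached 1 FPKM elsewhere, but in too few libraries to pass without the code where they are high. Ly6e, S100a14, Igtp, Il18, Serpinb5, Soat2 and Cdsn are examples, and their calls lean on the filter too. The mature sequence and the hairpin from RefSeq (GRCm38.p6) are shown because both copies carry the same letters, so reads cannot be assigned to either. In the mature line the capitals mark the seed (bases 2 to 8), and in the hairpin line they mark the mature microRNA. Of 1679 mature names in the RefSeq table, mmu-miR-8099 alone carries this seed.
mmu-miR-8099: cCAAGGCGugggaaagguugu
Mir8099-1 and Mir8099-2 hairpin: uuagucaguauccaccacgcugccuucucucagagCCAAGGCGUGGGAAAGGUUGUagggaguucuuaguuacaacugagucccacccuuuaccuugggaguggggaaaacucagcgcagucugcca

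The hairpin of 127 bases lies on chromosome 3 (95139060 to 95139186, minus strand) for Mir8099-1 and on chromosome 12 (93927338 to 93927464, plus strand) for Mir8099-2 in GRCm38.p6. Both copies were given 3.42, 3.13 and 3.49 FPKM in the C-26 libraries and were listed at 0 in the 3 C-20 and the 3 NTC libraries. Mir8099-1 lies within the gene Lysmd1 (chromosome 3, 95134088 to 95139525), which was not called and stood at 3.06, 3.29 and 3.52 FPKM in C-26, 2.80, 3.31 and 3.53 FPKM in C-20 and 5.84, 3.46 and 3.87 FPKM in NTC libraries. Mir8099-2 lies within the pseudogene Gm9726. The strand is not stated for these libraries, so reads of a hairpin and of the gene around it cannot be told apart, and a library of polyadenylated RNA does not measure mature microRNAs. Limma gave both copies an adjusted p of 9.8e-05 against NTC and against C-20.

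Of 16 tested small nucleolar RNA host genes, 12 were called lower in C-26 (75%) and 0 higher, all 16 had a negative change, and the median log2 change was −1.18 beside −0.01 for all tested genes. Snhg12 was at 30.2, 53.8 and 28.6 FPKM in C-26 libraries and 290, 427 and 173 FPKM in NTC libraries (log2 −2.92 ± 0.42, limma adjusted p = 0.00737). The gene 1500012F01Rik, which RefSeq names Zfas1, was at 75.0, 92.8 and 39.2 FPKM in C-26 libraries and 683, 577 and 201 FPKM in NTC libraries. In both genes the groups lay far apart in each title. The genes 1810032O08Rik and Gm11974, Snhg16 and Snhg15 in RefSeq, had changes of −2.50 and −2.49. Snhg16 was at 12.4, 11.7 and 12.96 FPKM in C-26 libraries, a narrow range, and 72.8, 140 and 40.3 FPKM in NTC libraries. Snhg1 (−2.07), Snhg5 (−1.57), Snhg7 (−1.48), Snhg6 (−1.12), Snhg10 (−1.05), Gas5 (−0.95), Snhg8 (−0.88) and 9430008C03Rik, which is Snhg17 (−1.18), were also called. Of the 4 members not called, 2810008D09Rik stood at −1.19 and Snhg4, C230091D08Rik and Snhg3 at −0.50, −0.36 and −0.21. The list median was −1.35 in the pair titled control, −1.18 in that of clone 2 and −1.17 in that of clone 3. Without the C-26 library titled clone 2 the median was −1.32 and 1 member stayed called, Snhg16. In such bulk samples fewer cells of a kind and less RNA per cell cannot be told apart, here or in the groups below.

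All 36 tested genes of the ATF4 response had a negative change, 11 were called lower (30.6%) and 0 higher, and the median was −0.68. In 22 of them all C-26 libraries lay below all NTC libraries, against 12.4% of all tested genes. Atf4 itself was at 311, 281 and 345 FPKM in C-26 libraries and 535, 468 and 461 FPKM in NTC libraries. These did not overlap, but the change of −0.64 ± 0.24 did not pass (limma adjusted p = 0.0941). Ddit3, which encodes the stress factor CHOP, was at 19.7, 25.1 and 15.7 FPKM in C-26 libraries and 41.1, 92.7 and 71.6 FPKM in NTC libraries (−1.66 ± 0.25, limma adjusted p = 0.00764). Trib3, a pseudokinase that feeds back on ATF4, was at 53.6, 79.8 and 48.9 FPKM in C-26 libraries and 183, 218 and 170 FPKM in NTC libraries. Ppp1r15a, which directs removal of the phosphate from the initiation factor eIF2, had 29.7, 30.6 and 10.3 FPKM in C-26 libraries against 69.8, 109 and 40.4 FPKM in NTC libraries. In none of these genes did the codes overlap.

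The other called members of the ATF4 list had varied roles. Cth, which makes cysteine from cystathionine, had the largest change of the list, −1.83 ± 0.51, with 18.2, 28.1 and 8.85 FPKM in C-26 libraries and 62.9, 67.8 and 55.3 FPKM in NTC libraries. Aldh1l2, a mitochondrial folate enzyme gene, stood at −1.61 and Stc2, the gene of the secreted glycoprotein stanniocalcin, at −1.46. The transcription factor gene Cebpg stood at −1.32 and the hormone gene Fgf21 at −1.09. The amino acid transporter genes Slc7a1, Slc1a4 and Slc1a5 stood at −1.07, −0.96 and −0.69. Asns, the asparagine synthetase gene that ATF4 controls, was below NTC in every C-26 library with 230, 225 and 216 FPKM against 279, 354 and 342 FPKM, but was not called (−0.53 ± 0.27, limma adjusted p = 0.199). Chac1, which degrades glutathione, stood at −0.88 and was not called. Of 20 genes of cytosolic tRNA synthetases, 8 were called lower (40%) and 1 higher (5%), with a median of −0.54. Iars, the isoleucine enzyme, was at 50.9, 59.8 and 62.7 FPKM in C-26 libraries and 119, 130 and 110 FPKM in NTC libraries (−1.04 ± 0.20, limma adjusted p = 0.0156). Tars, Rars, Yars, Lars, Eprs, Nars and Wars, which charge other amino acids, stood between −0.71 and −0.88. Qars, the glutamine enzyme, was the member called higher, with 101, 110 and 122 FPKM in C-26 libraries and 35.0, 58.5 and 94.7 FPKM in NTC libraries (0.92 ± 0.22). Without the C-26 library titled clone 2 the median was −0.60 for the ATF4 list and −0.44 for the synthetases, and 0 members of either list were called.

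The promoters of these genes were searched for the core of the C/EBP-ATF response element, TGATGNAA, which ATF4 and C/EBP proteins bind as pairs, on both strands of RefSeq windows of 300 bases (250 before the start site and 50 after it, GRCm38.p6). Of the 11 called ATF4 list genes, 8 had a window, and Trib3, Fgf21 and Slc1a4 held a match. Of the 9 called synthetase genes, 5 had a window, and Iars, Tars and Yars held one. The core occurs in 3.97% of all 32851 windows. A match is a description of letters and no evidence of binding. The 2 genes of each list with the largest change among those with a match are shown from 150 bases before to 30 after the start site, with the match in capitals. It begins 14 bases after the start of Trib3, 139 before that of Fgf21, 7 after that of Iars and 15 before that of Tars, and overlapped none of the other 7 motifs searched.
Trib3, chr2:152344031-152344210, minus strand: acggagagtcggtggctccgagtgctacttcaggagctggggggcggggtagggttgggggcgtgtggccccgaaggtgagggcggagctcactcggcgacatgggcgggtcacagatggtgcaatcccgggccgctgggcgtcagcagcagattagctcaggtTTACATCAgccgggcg
Fgf21, chr7:45615461-45615640, minus strand: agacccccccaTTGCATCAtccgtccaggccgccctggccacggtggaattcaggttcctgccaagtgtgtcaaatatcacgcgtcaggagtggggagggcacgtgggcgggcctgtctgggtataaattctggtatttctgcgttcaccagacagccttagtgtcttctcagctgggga
Iars, chr13:49681980-49682159, plus strand: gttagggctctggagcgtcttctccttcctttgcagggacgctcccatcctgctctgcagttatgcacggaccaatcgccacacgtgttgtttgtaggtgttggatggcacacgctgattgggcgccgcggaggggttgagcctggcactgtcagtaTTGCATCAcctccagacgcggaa
Tars, chr15:11399629-11399808, minus strand: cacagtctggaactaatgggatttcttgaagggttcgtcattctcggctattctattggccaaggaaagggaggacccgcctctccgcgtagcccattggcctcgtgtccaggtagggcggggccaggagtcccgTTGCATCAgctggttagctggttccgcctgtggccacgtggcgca

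Of 40 tested ribosome biogenesis genes, 19 were called lower (47.5%) and 0 higher, with 36 negative and a median of −0.56. Wdr43, a factor of the small subunit's assembly, was at 61.7, 65.1 and 32.2 FPKM in C-26 libraries and 142, 153 and 76.1 FPKM in NTC libraries (−1.21 ± 0.15, limma adjusted p = 0.00497). Nop58, a core protein of the box C/D small nucleolar particles, was at 203, 181 and 44.9 FPKM in C-26 libraries and 381, 372 and 101 FPKM in NTC libraries. Its groups overlapped, since both clone 3 libraries were low, while each C-26 library was below its own NTC partner (−1.03 ± 0.19, limma adjusted p = 0.014). Gnl3 and Heatr1 stood at −1.18 and −1.001, Npm1 at −0.86, Nop56 at −0.77 and nucleolin, Ncl, at −0.54. Pes1, Wdr12, Nop14, Ltv1, Polr1b, Rrs1, Gar1, Ddx21, Polr1c, Wdr74, Dkc1 and Tsr1 were the other members called. The list median was −0.64 in the control pair, −0.67 in the clone 2 pair and −0.17 in the clone 3 pair. It was −0.50 with 0 members called when the C-26 library titled clone 2 was left out. Of the 10 tested members of the Myc and Max network, Myc was called and the list median was −0.07.

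Cytosolic ribosomal protein genes had few calls (3.8% lower and 1.27% higher). Of 79 tested, 70 were negative with a median of −0.28, and 3 were called lower (Rps27a, Rps23 and Rpl26 at −1.06, −0.96 and −0.81) and 1 higher (Rpl37a at 0.79). In 26 of the 79 all C-26 libraries lay below all NTC libraries, against 12.4% of all tested genes. Rps27a was at 1034, 866.7 and 681.4 FPKM in C-26 libraries and 3148, 1527 and 1161 FPKM in NTC libraries. Many processed pseudogenes resemble these genes, so their values carry the uncertainty of how shared reads were assigned. Mitochondrial ribosomal protein genes had 12 of 76 called lower (15.8%) and 0 higher, led by Mrpl32 at −1.02, with a median of −0.14, and 0 were called without the C-26 library titled clone 2. Of 18 genes of SR splicing factors and the CLK kinases that phosphorylate them, 5 were called lower (27.8%) and 0 higher. Clk4 (−1.07), Srsf10 (−0.86), Tra2b (−0.79) and Clk1 (−0.65) were among those called lower. The list median was −0.30 (−0.18 and 0 called without that library). Zinc finger genes of the Zfp series had 21 of 258 called lower (8.14%) and 3 higher (1.16%), a share of lower genes near the background of 7.36%. Neither these nor the cytosolic ribosomal protein genes had a call without that library. Among the called assembly factors, the E-box CACGTG, which Myc and Max bind as a pair, was found in the windows of Wdr43, Pes1, Ltv1 and Tsr1 out of 17 called genes with a window, and it occurs in 7.15% of all windows. The window of Wdr43, the largest change among them, is shown with the E-box in capitals, 17 bases after the start.
Wdr43, chr17:71616065-71616244, plus strand: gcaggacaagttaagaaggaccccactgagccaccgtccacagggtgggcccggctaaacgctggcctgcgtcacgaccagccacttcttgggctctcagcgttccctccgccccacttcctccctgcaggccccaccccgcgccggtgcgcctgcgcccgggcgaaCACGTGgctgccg

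Calls among interferon-stimulated genes were all towards C-26. Of 33 tested, 10 were called higher (30.3%) and 0 lower, 32 were positive, and the median was 0.59. Igtp, among the 10, would not have passed the filter without the C-26 libraries. Ifitm3, which blocks entry of viruses at the membrane, was the most abundant and the most changed of the called members. It had 314, 520 and 529 FPKM in C-26 libraries and 167, 132 and 199 FPKM in NTC libraries (1.43 ± 0.20, limma adjusted p = 0.00728). Bst2, the gene of tetherin, stood at 0.63, the signalling factor gene Irf7 at 0.94, Ifi35 at 0.94, Lgals3bp at 0.84 and Parp12 at 0.77. Oas1a, a sensor enzyme of double-stranded RNA, was at 5.89, 8.20 and 5.05 FPKM in C-26 libraries and 1.47, 2.62 and 2.96 FPKM in NTC libraries. Stat2, which carries the interferon signal to the nucleus, was at 7.47, 5.90 and 5.93 FPKM in C-26 libraries and 2.22, 1.78 and 4.13 FPKM in NTC libraries, with no overlap. Isg15, a classical member, had 19.3, 21.7 and 10.3 FPKM in C-26 libraries and 13.5, 4.27 and 8.39 FPKM in NTC libraries and was not called, at 0.95. The list median was 0.66 in the control pair, 0.98 in the clone 2 pair and 0.15 in the clone 3 pair. The summed FPKM of all 54 listed genes was 676 to 961 in C-26 libraries and 332 to 433 in NTC libraries. The median was 0.44 with 0 members called when the C-26 library titled clone 2 was left out.

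Genes of antigen presentation by MHC class I had 5 of 25 called higher (20%) and 0 lower, with a median of 0.22 (0.06 and 0 called without the C-26 library titled clone 2). H2-T22, a nonclassical class I gene, was at 19.6, 14.5 and 12.01 FPKM in C-26 libraries and 3.70, 3.88 and 7.68 FPKM in NTC libraries (1.46 ± 0.26, limma adjusted p = 0.0137). Class I genes resemble each other closely, so reads may be shared among them. The proteasome activator gene Psme1 stood at 1.18, the chaperone gene Calr at 0.99 and the immunoproteasome gene Psmb9 at 0.98. The core of the interferon-stimulated response element, GAAANNGAA, was found in the windows of Ifitm3, Oas1a, Igtp, Stat2 and Bst2 out of 10 called interferon-stimulated genes with a window, and it occurs in 8.56% of all windows. The windows of the 2 with the largest change are shown with the matches in capitals. They begin 2 and 19 bases after the start of Ifitm3, and 20 and 14 bases before that of Oas1a, where the matches overlap each other.
Ifitm3, chr7:141010715-141010894, minus strand: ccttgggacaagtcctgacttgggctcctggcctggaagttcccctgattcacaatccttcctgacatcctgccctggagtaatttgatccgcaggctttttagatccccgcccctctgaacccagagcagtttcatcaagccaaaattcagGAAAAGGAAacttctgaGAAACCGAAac
Oas1a, chr5:120907496-120907675, minus strand: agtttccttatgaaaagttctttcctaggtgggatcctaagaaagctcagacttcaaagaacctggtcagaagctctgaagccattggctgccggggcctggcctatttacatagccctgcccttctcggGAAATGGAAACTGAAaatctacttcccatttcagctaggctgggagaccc

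**Figure D3:**
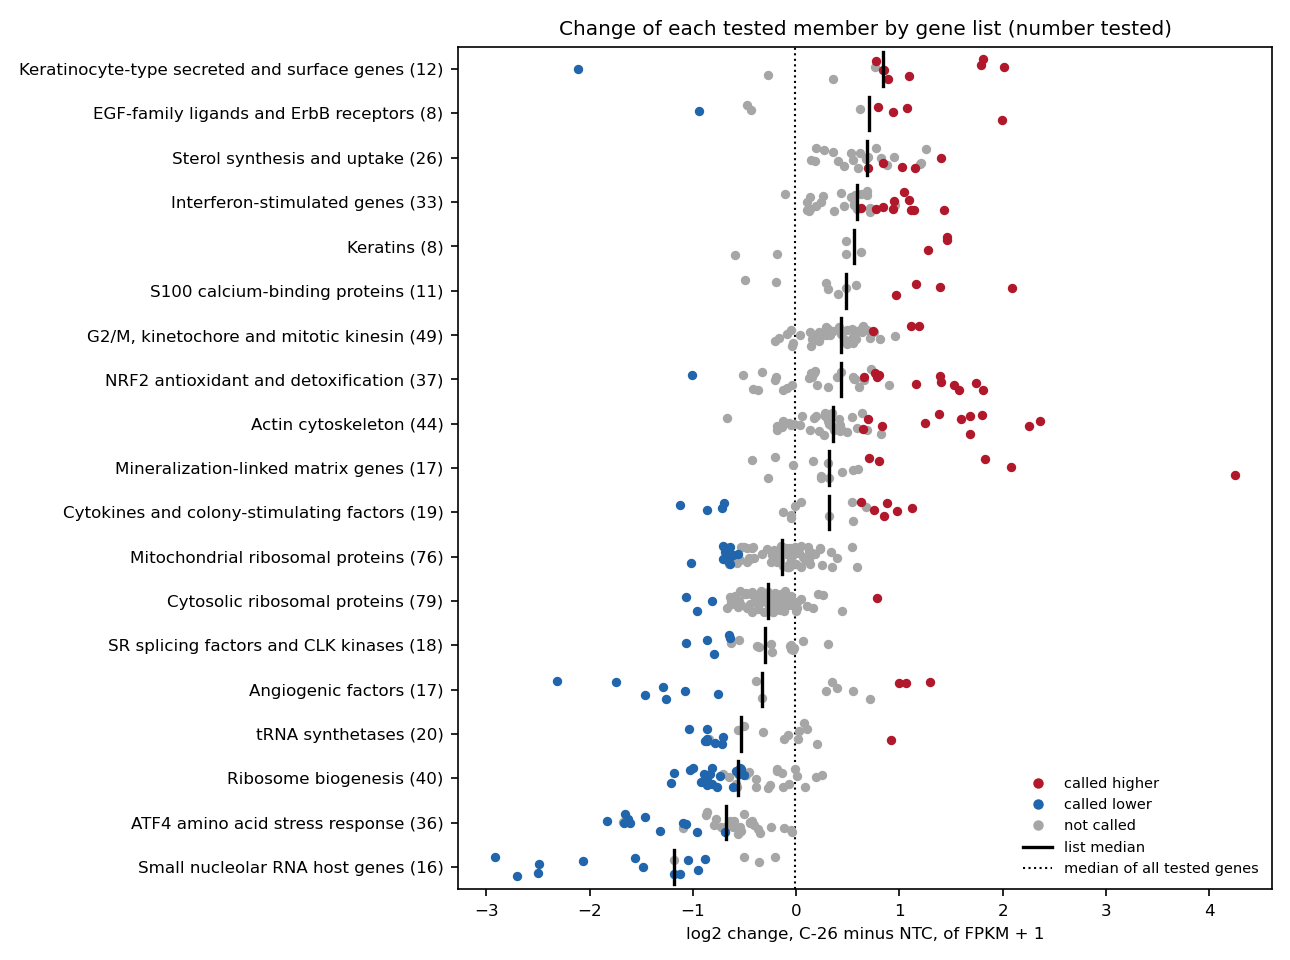
Log2 change (C-26 minus NTC, of FPKM + 1) of each tested member of 19 gene lists, with the number tested in brackets. Red points were called higher, blue points lower and grey points neither. Black bars are list medians, from 0.84 at the top to −1.18 for small nucleolar RNA host genes, and the dotted line is the median of all tested genes (−0.01).

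Sterol synthesis and uptake genes were positive in 26 of 26, with 5 called higher (19.2%), 0 lower and a median of 0.68. In only 2 of the 26 did all C-26 libraries lie above all NTC libraries, against 10.8% of all tested genes. The called members were Tm7sf2, Dhcr7, Mvd, Fdft1 and Ebp, all enzymes of the pathway, at 1.40, 1.15, 1.02, 0.84 and 0.69. Dhcr7, which catalyses the last step to cholesterol, was at 12.3, 13.3 and 24.1 FPKM in C-26 libraries and 3.82, 5.46 and 12.8 FPKM in NTC libraries, and the groups overlapped because both clone 3 libraries were high. The sensor gene Insig1 stood at 1.26 and was not called. The list median was 1.07 in the control pair, 0.31 in the clone 2 pair and 0.56 in the clone 3 pair. The core of the sterol regulatory element, TCACNCCAC, was not found in the 6 windows of the 4 called genes that had one, and it occurs in 1.24% of all windows. Without the C-26 library titled clone 2 the median was 0.64 with 0 members called. Of 31 genes of fatty acid handling, 2 were called higher (6.45%) and 3 lower (9.68%), near the background of 6.75% and 7.36%. Cpt1a, the gate to mitochondrial fatty acid oxidation, was at 14.1, 11.9 and 8.56 FPKM in C-26 libraries and 1.96, 3.12 and 5.96 FPKM in NTC libraries (1.48 ± 0.34, limma adjusted p = 0.0247). Acacb, the other gene called higher, passed the filter through the C-26 libraries alone. Plin2, which coats lipid droplets, was lower at 42.6, 78.4 and 74.9 FPKM in C-26 libraries against 126, 160 and 105 FPKM in NTC libraries (−1.02 ± 0.24, limma adjusted p = 0.0278), and 0 of the list were called without the C-26 library titled clone 2.

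Genes of the NRF2 and detoxification list had 11 of 37 called higher (29.7%) and 1 lower, with a median of 0.43. The members called higher were mostly glutathione transferases and aldo-keto reductases: Gsta4, Mgst3, Akr1c12, Mgst1, Gstm1, Mgst2, Gstm2, Gsta1 and Akr1c13 stood between 1.81 and 0.65, and Keap1 and Ephx1 at 0.77 and 0.80. Gsta4, which conjugates the lipid peroxidation product hydroxynonenal, was at 23.3, 31.0 and 45.9 FPKM in C-26 libraries and 4.35, 7.77 and 17.0 FPKM in NTC libraries, with no overlap (1.81 ± 0.17, limma adjusted p = 0.00136). Mgst1 was at 20.8, 12.9 and 6.35 FPKM in C-26 libraries and 3.34, 3.19 and 4.10 FPKM in NTC libraries. Classical NRF2 targets in the list were not called: Nqo1 stood at 0.40, Gclc at −0.33, Hmox1 at −0.42 and Slc7a11 at −0.37, and Nfe2l2, the gene of NRF2, at −0.20. Sqstm1, also a member, was the gene called lower, at 230, 260 and 285 FPKM in C-26 libraries against 626, 516 and 429 FPKM in NTC libraries. Related glutathione transferase genes are similar in sequence, so reads may be shared among them. The antioxidant response element core, TGACNNNGC, was found in the window of Mgst1 out of 11 called genes with a window and occurs in 12.39% of all windows. Gsta4 alone stayed called when the C-26 library titled clone 2 was left out, with a list median of 0.39.

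Genes of the actin cytoskeleton had 11 of 44 called higher (25%) and 0 lower, with a median of 0.36. Besides Crip1, Add2 and Actg1 they were Cnn2 (1.80), Tmsb4x (1.68), Lcp1 (1.68), Gsn (1.39), Capg (1.25), Ezr (0.84), Vcl (0.70) and Dstn (0.65), genes of actin binding, bundling, severing and membrane anchoring. Lcp1, the bundling protein plastin, was at 24.7, 30.3 and 29.4 FPKM in C-26 libraries and 5.54, 9.16 and 10.1 FPKM in NTC libraries (1.68 ± 0.16, limma adjusted p = 0.00125). Gsn, which encodes the severing protein gelsolin, was at 170, 219 and 284 FPKM in C-26 libraries and 45.1, 85.0 and 151 FPKM in NTC libraries, with no overlap. Beta-actin, Actb, stood at 0.35 and Fscn1 at −0.67, without a call. Of 11 S100 genes, 4 were called higher (36.4%) and 0 lower: S100a16, S100a11, S100a14 (1.16) and S100a13 (0.97). S100a14 would not have passed the filter without the C-26 libraries. Lcp1, Add2 and S100a16 stayed called without the C-26 library titled clone 2.

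Of 38 genes of the surface and secretions of keratinocytes, 12 were tested. Of these, 8 were called higher (66.7%) and 1 lower (8.33%), with a median of 0.84. Members that passed the filter through the group where they are high had to differ, so this share covers the tested genes only, and 5 of the 38 were listed at 0 in all 6 libraries. Lypd3, a surface protein of the Ly6 family, was at 11.2, 16.6 and 15.1 FPKM in C-26 libraries and 1.10, 3.07 and 5.09 FPKM in NTC libraries. Slpi, a secreted protease inhibitor, was at 10.7, 61.6 and 20.9 FPKM in C-26 libraries and 4.94, 5.78 and 8.22 FPKM in NTC libraries, and the C-26 library titled clone 2 was the highest by a wide margin. Ly6e was at 2.24, 4.48 and 2.80 FPKM in C-26 libraries and 0.208, 0.168 and 0.164 FPKM in NTC libraries (1.79 ± 0.22, limma adjusted p = 0.00474). It would not have passed the filter without the C-26 libraries. Sbsn, Klk10, Serpinb5, Wfdc2 and Klk8 stood between 1.10 and 0.77. Cdsn, a desmosome protein of the cornified layer, was the member called lower, with 0.948, 2.11 and 0.773 FPKM in C-26 libraries against 12.9, 10.95 and 4.23 FPKM in NTC libraries. Leaving out the C-26 library titled clone 2 gave a list median of 0.76 with 0 members called.

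Among 8 tested keratin genes, Krt8, Krt19 and Krt13 were called higher (37.5%) and 0 lower. Krt13 passed the filter through the C-26 libraries alone, and so had to differ. Krt8 was at 489, 563 and 743 FPKM in C-26 libraries and 86.7, 231 and 480 FPKM in NTC libraries, a narrow gap between the lowest C-26 and the highest NTC library (1.47 ± 0.38, limma adjusted p = 0.0337). Krt19 was at 31.4, 47.0 and 40.1 FPKM in C-26 libraries and 6.82, 22.9 and 15.4 FPKM in NTC libraries (1.46 ± 0.21, limma adjusted p = 0.00753). Junction and adhesion genes were mixed, with 4 of 32 called higher (12.5%) and 3 lower (9.38%). Ppl and Jup, of desmosomes and the cell envelope, stood at 1.63 and 1.34 and beta-catenin, Ctnnb1, at 0.98, while the tight junction gene Cldn3 was at 9.38, 10.96 and 12.5 FPKM in C-26 libraries against 20.9, 25.9 and 25.2 FPKM in NTC libraries (−1.07 ± 0.15, limma adjusted p = 0.00668). Of 14 mesenchymal genes, Itgb3 was called higher (1.30) and Zeb2 and Loxl2 lower (−0.80 and −0.70), which is 7.14% and 14.3%. The keratin, junction and mesenchymal lists had 0 members called without the C-26 library titled clone 2.

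Secreted signals moved in both directions. Among 8 tested EGF-family ligands and ErbB receptors, 4 were called higher (50%) and 1 lower (12.5%), with a median of 0.70. Betacellulin, Btc, was at 6.16, 9.02 and 1.49 FPKM in C-26 libraries and 0.278, 0.73 and 0.269 FPKM in NTC libraries (2.00 ± 0.28, limma adjusted p = 0.00661). The ligand gene Tgfa was at 22.04, 26.2 and 24.5 FPKM in C-26 libraries and 6.91, 14.1 and 13.4 FPKM in NTC libraries, and Nrg2 and the receptor gene Erbb3 stood at 0.79 and 0.94. Neuregulin 1, Nrg1, was called lower at −0.94, and Areg was not called. Cytokine and receptor genes had 6 of 19 called higher (31.6%) and 4 lower (21.1%). Those higher were Tnfsf9 (1.12), Il18 (0.98), Csf3 (0.88), Il1r1 (0.85), Il34 (0.76) and Il4ra (0.63). Those lower were Il23a (−1.13), Lif (−0.87), Csf1 (−0.72) and Il6st (−0.70). Csf1, the main growth factor of macrophages, was at 34.8, 40.5 and 49.9 FPKM in C-26 libraries and 56.8, 75.7 and 75.4 FPKM in NTC libraries, while Il34, the other ligand of its receptor, was at 6.003, 11.5 and 13.1 FPKM in C-26 libraries and 3.45, 5.90 and 7.33 FPKM in NTC libraries. These 2 ligands of CSF1R thus moved in opposite directions. Of 8 tested chemokine genes, Cx3cl1 and Cxcl5 were called higher (1.63 and 1.05) and Ccl20 lower, which is 25% and 12.5%. Leaving out the C-26 library titled clone 2 left 0 of the EGF-family and cytokine genes called, and 1 chemokine gene, Ccl20.

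Angiogenic factors had 7 of 17 called lower (41.2%) and 3 higher (17.6%), with a median of −0.33. The median was 0.23 in the pair titled control, −0.55 in that of clone 2 and −0.29 in that of clone 3. Vegfa was at 17.6, 21.4 and 9.42 FPKM in C-26 libraries and 53.1, 41.2 and 25.4 FPKM in NTC libraries (−1.27 ± 0.31, limma adjusted p = 0.0301), and Vegfc at 3.38, 5.38 and 6.51 FPKM against 13.4, 22.7 and 11.8 FPKM (−1.46 ± 0.22, limma adjusted p = 0.00783). Endothelin 1, Edn1, a vasoconstrictor peptide, was at 0.214, 0.504 and 0.195 FPKM in C-26 libraries and 2.06, 6.002 and 2.85 FPKM in NTC libraries. These groups lay far apart in each title. Pdgfb and Pdgfa stood at −1.07 and −0.76, Angptl6 at −2.32 and Ecscr at −1.29. The members called higher were Thbs1, an inhibitor of angiogenesis, at 25.7, 47.8 and 36.3 FPKM in C-26 libraries against 6.64, 20.5 and 19.1 FPKM in NTC libraries (1.29), Angptl2 (1.06) and Sema3f (1.00). Edn1 and Ecscr stayed called without the C-26 library titled clone 2, where the list median was −0.17, but both passed the filter through the NTC libraries alone and so had to differ. Genes of TGF-beta and BMP signalling had 5 of 33 called higher (15.2%) and 7 lower (21.2%) with a median of −0.10. Id2 (1.75), Tgfb3 (1.05), Ltbp3 (1.03), Tgfbr3 (1.00) and Tgfbr2 (0.77) were higher, and Inhba (−1.04), Bmp7 (−0.83), Ltbp1 (−0.73), Smurf1 (−0.68), Smad5 (−0.65), Acvr2a (−0.60) and Acvr1 (−0.58) lower, and 0 of the list were called without that library.

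Immediate early and stress-response genes split in the same way, with 4 of 37 called higher (10.8%) and 6 lower (16.2%). Sgk1, a kinase gene of glucocorticoid and growth factor signalling, was at 103, 81.7 and 68.0 FPKM in C-26 libraries and 15.3, 30.5 and 26.9 FPKM in NTC libraries (1.79 ± 0.33, limma adjusted p = 0.014), and Zfp36, Egr3 and Egr2 stood at 1.45, 0.99 and 0.84. Plk2, a kinase gene that p53 controls, was at 30.3, 29.8 and 38.5 FPKM in C-26 libraries and 83.7, 262 and 106 FPKM in NTC libraries (−1.99 ± 0.29, limma adjusted p = 0.00764). Gadd45a, which slows growth after DNA damage, was at 39.4, 53.2 and 10.8 FPKM in C-26 libraries and 138, 149 and 63.9 FPKM in NTC libraries. Neither of these 2 genes overlapped between the codes. Gadd45b, Maff, Mafk and Fosl1 stood at −1.27, −0.97, −0.91 and −0.86. Fos, Jun and Egr1, the best known of the list, were not called (0.99, −0.05 and 0.18). Trp53, the gene of p53, was at 27.5, 39.1 and 38.2 FPKM in C-26 libraries and 76.1, 57.6 and 69.6 FPKM in NTC libraries (−0.94 ± 0.22, limma adjusted p = 0.0248). The list of p53 and DNA damage genes had 4 of 33 called in each direction (12.1%). Neither this list nor the immediate early list had a call without the C-26 library titled clone 2.

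Few cell cycle genes were called. Of 49 genes of mitosis, 43 had a positive change, against 5294 of all 10783 tested genes, with a median of 0.43, and Cdca3, Pttg1 and Kif2c were called (1.19, 1.11 and 0.75), which is 6.12% and close to the background of 6.75%. The median was 0.96 in the control pair, 0.27 in the clone 2 pair and 0.03 in the clone 3 pair. Of 51 genes of G1/S and replication, 5 were called higher (9.8%) and 2 lower (3.92%), with a median of 0.10. Pold1 (1.05), Pola2 (0.74), Ccnd1 (0.73) and Mcm2 (0.69) were among those called higher. Several other lists stood near the background. They were the proteasome (2 of 37 called higher and 0 lower), the nuclear-encoded respiratory chain (3 of 63 in each direction), glycolysis and hypoxia (3 higher and 1 lower of 35), lysosome and autophagy (3 of 41 in each direction), chaperones of the endoplasmic reticulum (2 higher and 1 lower of 27) and cytosolic heat shock proteins (1 of 26 in each direction). The PI3K pathway had 2 of 35 called in each direction (5.71%) and a median of −0.03. Literature targets of miR-204-5p, the microRNA of the titles, had 2 of 26 called in each direction (7.69%) and a median of 0.11. Ezr and Tgfbr2 were higher (0.84 and 0.77) and Sox4 and Creb1 lower (−0.92 and −0.65). Genes tied to mineralisation, a list built around Mgp with earlier results known, had 5 of 17 called higher (29.4%): Mgp, Eya2, Spp1, Enpp1 and Ank. Without the C-26 library titled clone 2, Mgp and Eya2 stayed called and 0 of the other genes of these lists. Spp1, osteopontin, was at 322, 620 and 86.6 FPKM in C-26 libraries and 51.4, 116 and 63.4 FPKM in NTC libraries. Its groups overlapped and the pair titled clone 3 differed least.

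Markers of other cell types were near 0 with few exceptions, of which Egfl7 (15.6 to 19.7 FPKM in C-26 and 8.77 to 18.9 FPKM in NTC libraries) and Fbln2 (61.8 to 97.1 and 51.0 to 130 FPKM) were the most abundant. Of 12 endothelial, 14 fibroblast and 21 leukocyte markers in the table, 2 of each were expressed enough to be tested, and 1 of each was called higher: Flt1, Pdgfra and Cd68 (0.79, 1.20 and 0.61). Without the C-26 library titled clone 2, 0 members of these lists were called. Their summed FPKM ran from 21.6 to 24.1 in C-26 and 10.5 to 21.8 in NTC libraries for endothelial markers, 69.1 to 105 and 52.6 to 134 for fibroblast markers, and 11.5 to 16.3 and 7.77 to 10.3 for leukocyte markers. Replication-dependent histone genes, whose RNAs lack poly(A) tails, summed to 49.3, 38.1 and 40.7 FPKM in C-26 libraries and 37.1, 96.7 and 74.4 FPKM in NTC libraries, so 2 of the 3 NTC libraries were above all C-26 libraries. Their part in the results above was not tested.

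C-26 was also set against C-20, the third code, in the same fit, which tests whether the changes of both codes from NTC differ. Both changes share the NTC libraries, so they are not compared by overlap here. Limma called 2 genes higher in C-26 than in C-20 (0.0185% of those tested), Mir8099-1 and Mir8099-2, and 0 lower. These 2 are 1 measurement, given the same values from the same letters, and passed the filter through C-26 alone. Of all tested genes, 357 genes had an unadjusted limma p below 0.05 (197 higher and 160 lower). The list median of C-26 minus C-20 was −0.05 for ATF4, −0.08 for synthetase, 0.04 for sterol and 0.04 for NRF2 genes. It was −0.47 for small nucleolar RNA host genes and 0.35 for interferon-stimulated genes. C-26 was above C-20 in 677 of the 728 genes called higher against NTC. It was below C-20 in 744 of the 794 called lower. Choosing genes by their C-26 values favours these directions. For the 1522 genes called against NTC, the 95% interval of the difference between C-26 and C-20 had a median half-width of 0.41 log2 units, so smaller differences were within the error for a typical gene. Mgp was at 30.1, 141 and 55.3 FPKM in C-26 libraries, 13.03, 24.1 and 23.6 FPKM in C-20 libraries and 1.67, 2.72 and 2.63 FPKM in NTC libraries. Its difference between C-26 and C-20 was 1.62 ± 0.29, which did not pass (limma adjusted p = 0.366). S100a16 and Ly6e, at differences of 1.03 ± 0.19 and 1.25 ± 0.22, had the same adjusted p. Igfbp7, a secreted protein that binds insulin-like growth factors, was at 5.84, 6.395 and 5.58 FPKM in C-26 libraries, 5.57, 5.10 and 5.46 FPKM in C-20 libraries and 18.7, 20.1 and 27.5 FPKM in NTC libraries. Its lowest C-26 value lay just above its highest C-20 value, and the difference of 0.12 ± 0.17 did not pass (limma adjusted p = 0.999). The C-20 libraries varied more by title in several of the genes named above. Snhg12 had 30.2, 53.8 and 28.6 FPKM in C-26 libraries, 29.8, 288 and 36.8 FPKM in C-20 libraries and 290, 427 and 173 FPKM in NTC libraries, and Myc 90.5, 153 and 139 FPKM, 88.4, 292 and 139 FPKM, and 432, 554 and 310 FPKM for the same codes. In both genes the C-20 library titled clone 2 lay above all C-26 libraries. That library also lay towards NTC in 5430416N02Rik (11.2, 91.3 and 6.21 FPKM in C-20 libraries), Acot2 (2.39, 37.0 and 4.14 FPKM) and S100a11 (1892, 858 and 3100 FPKM). Mgp and Igfbp7 did not have this pattern. In genes that have it, the difference between C-26 and C-20 and its spread rest in part on that single library.

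**Figure D4:**
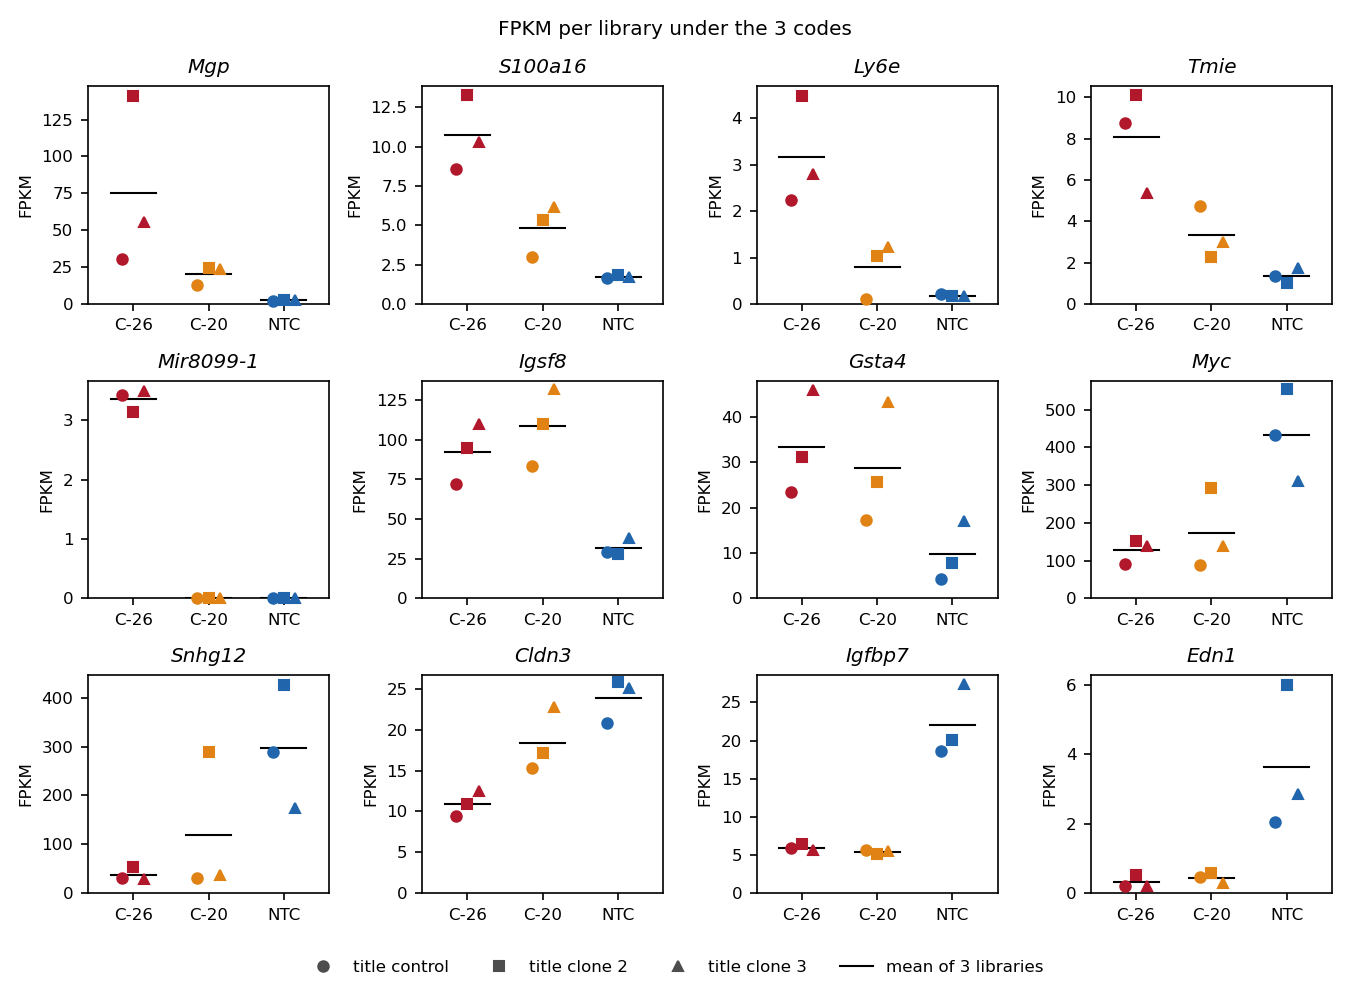
FPKM of 12 genes, chosen after their values were seen, in each library of the codes C-26, C-20 and NTC. Circles, squares and triangles are the libraries titled control, clone 2 and clone 3, and bars are means of 3 libraries. Mgp averages 75.4 FPKM in C-26, 20.2 in C-20 and 2.34 in NTC, Mir8099-1 is above 0 in C-26 libraries alone, and Igfbp7 lies between 5.58 and 6.395 FPKM in C-26 and 5.10 and 5.57 in C-20 libraries.

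How many genes were called depended on single libraries. Without the C-26 library titled clone 2, which stood apart as described, 16 genes were called higher and 5 lower, against 728 and 794 with all libraries. Without the NTC library titled clone 2 the counts were 95 and 95, without the C-26 library titled control 127 and 182, and without the C-20 library titled clone 3 they were 265 and 280. Leaving out the C-26 library titled clone 3 gave 594 and 389, and leaving out the NTC library titled control gave 456 and 626. Of the 1522 called genes, all kept the sign of their change when any 1 library was left out. This was largely fixed by how they were chosen, since 1517 of them had the same sign in all 3 pairs. The 21 genes that stayed called without each of the 9 libraries in turn were, among those higher, Mgp, Mcpt8, Add2, S100a16, Eya2, Nptx1, Tmie, Lgals9, Gsta4, Eml1, Trib2, Lcp1, Igsf8, Sulf2, Mir8099-1 and Mir8099-2, and, among those lower, 1810032O08Rik, Ccl20, Edn1, Igfbp7 and Ecscr. Of these, Mir8099-1, Mir8099-2, Edn1 and Ecscr passed the filter through 1 code alone. Igsf8, a surface protein of the immunoglobulin family, was at 72.2, 94.6 and 110 FPKM in C-26 libraries and 29.3, 28.3 and 37.9 FPKM in NTC libraries. Lgals9, the gene of the glycan-binding protein galectin 9, was at 11.99, 18.4 and 14.9 FPKM in C-26 libraries and 2.11, 3.31 and 5.21 FPKM in NTC libraries. Sulf2, which removes sulfate from heparan sulfate, was at 3.65, 5.50 and 4.38 FPKM in C-26 libraries and 0.818, 0.96 and 1.23 FPKM in NTC libraries, and the pseudokinase gene Trib2 at 4.12, 3.95 and 2.94 FPKM against 0.374, 0.292 and 0.654 FPKM. None of these 4 genes overlapped between the codes.

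**Figure D5:**
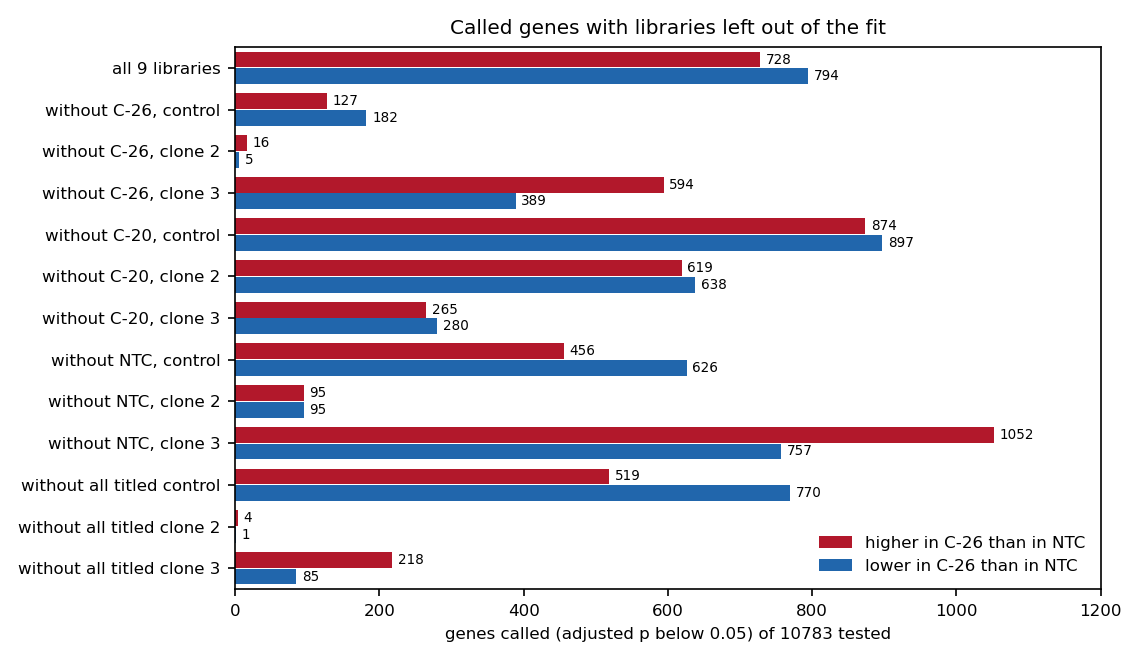
Number of genes called higher (red) and lower (blue) in C-26 than in NTC with all 9 libraries, without each library and without all libraries of a title. The counts are 728 and 794 with all libraries, 16 and 5 without the C-26 library titled clone 2, and 1052 and 757 without the NTC library titled clone 3.

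In the authors' deposited table of this comparison, which tests 13414 genes without the pairing, the smallest adjusted p was 0.189, so 0 genes lay below 0.05. By its unadjusted p-values 554 genes were higher and 635 lower at p below 0.05, and 100 and 83 of these had a fold of 2 or more in size. Of the 1518 genes called in the paired fit that the authors' deposited table also holds, 583 had an unadjusted p below 0.05 there.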

How the data were processed

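The files hold 9 libraries of 4T1 cells. The submitters' processing notes name TopHat2 2.0.13, Bowtie2 2.2.3, Cufflinks 2.2.1 and the build mm10. The annotation and strand setting are not given in the sources used here. The authors deposited FPKM values of 24067 genes. Their comparison table of 13414 genes adds log2 values after quantile normalization, a signed fold score and p-values, per the file headers, and an unequal-variance test gave the authors' raw p-values to within 2.9e-14. The files have no counts, so depth is unknown.

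Genes at 1 FPKM or more in at least 3 of 9 libraries were tested. Values of log2(FPKM + 1) were fitted in limma 3.58.1 (R 4.3.3) with a mean-variance trend, code and title as terms, all 9 libraries (4 residual degrees of freedom) and Benjamini-Hochberg adjustment over all 10783 tested genes. Libraries were paired by title. Deviations of libraries of equal title from their code means correlated at 0.26 (C-20 and NTC, control) to 0.883 (C-26 and C-20, clone 3). For C-26 and NTC they correlated at 0.467, 0.496 and 0.766. Libraries of different titles were not set beside these, so the values do not test the pairing. Coordinates and sequences are RefSeq's (GRCm38.p6, the assembly of mm10), matched by gene ID for 10760 tested genes. Tables and figures used Python 3.11.15, pandas 2.3.3, scipy 1.17.1 and matplotlib 3.10.9. The fit was run on data simulated from its own model, with independent noise of equal spread in every library. That run checks the code only and does not cover a library that stands apart. The members and gene lists were chosen with earlier results of these data known, and no list was tested as a set. Genes named are called genes with a mean of 5 FPKM or more in the higher group (12 highest and lowest changes), the 10 largest increases and decreases in FPKM, the 6 smallest p in each direction, up to 4 called genes per list by size of change, other list members where a list is described, genes called in C-26 against C-20 (up to 8 in each direction), and the 6 genes of 5 FPKM or more with the widest range of pair changes of opposite sign. Promoters are shown for called list genes with a motif match. Igsf8, Lgals9, Sulf2, Eml1 and Trib2 (called without each library) and Lysmd1 were chosen after their values were seen. Alternatives were a pseudocount of 0.1, no filter, no block, the 6 libraries alone, quantile and median ratio scaling, library weights, the authors' quantile-normalized values, and leaving out each library and each title.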

Additional observations from a re-analysis of the deposited data

Results flagged for a closer look

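In 6 short noncoding RNA genes with a mean of 5 FPKM or more over the 6 libraries, the pairs of libraries moved in opposite directions, and the difference between pairs was not tested because each combination of code and title has 1 library. The range of the 3 pair changes was 9.33 log2 units for Snora41, which was at 28.4, 0 and 28.0 FPKM in C-26 libraries and 20.8, 21.3 and 0 FPKM in NTC libraries. It was 8.67 for Mir692-2a, 8.19 for Snora15, 7.81 for Mir684-1, 7.73 for Snora65 and 6.601 for Mir684-2, each of which was also listed at 0 in at least 1 of the 6 libraries. None of these 6 genes was called in C-26 against NTC by limma.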

How the results depend on the processing

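Of the 179 named genes called in C-26 against NTC, Mgp, Mir8099-1 and Mir8099-2 were called in every setting that tested them. The 2 Mir8099 copies are 1 measurement and passed the filter through C-26 alone, so they had to differ. Where libraries were left out, the filter was still taken over all 9 libraries. The 728 higher and 794 lower genes became 64 and 51 with no filter on low values (20025 genes tested), 13 and 2 with no replicate block, 405 and 425 with the C-26 and NTC libraries alone, and 2422 and 2480 with library weights, whose estimation stopped before it converged. Without the libraries titled clone 2 they were 4 and 1, and without those titled clone 3 they were 218 and 85 (71.9% higher, against 47.8% with all). Leaving out 1 library gave 16 to 1052 higher and 5 to 897 lower genes. The 2 higher and 0 lower genes of C-26 against C-20 became 26 and 4 with library weights, 6 higher without the libraries titled control and 1 lower with no filter. They became 0 higher on the authors' quantile-normalized values, which leave out genes at 0 in a library, and 2 to 7 higher and 0 to 2 lower without 1 library. The other settings gave 1366 (pseudocount of 0.1), 1549 (quantile), 1902 (median ratio), 1666 (authors' values) and 1289 (without the libraries titled control) called genes. All 1522 called genes that a setting tested kept their sign in it, which their selection in the same data largely fixed. The change of Snora41, C-26 against NTC, which was not called, turned to −3.01 with library weights. List medians kept their sign in all 20 settings for the small nucleolar RNA host, ATF4, tRNA synthetase, ribosome biogenesis, interferon, sterol, mitotic, NRF2, actin, keratinocyte and angiogenic lists, and changed it in some for the Myc network, G1/S, immediate early, PI3K, respiratory, proteasome and miR-204-5p target lists. Except where fewer genes, libraries or tests explain it by construction, the cause was not tested. Depth, which is unknown, limits the values near 0.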
